A study of Homo sapiens with 56 samples.

Results

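Small nucleolar RNA (snoRNA) host genes and a set of known long noncoding RNAs were followed in 4 cell lines of cutaneous T-cell lymphoma grown with or without cobomarsen. A probe set was taken when its only gene symbol in the array's annotation began with SNHG followed by a digit, or was 1 of 32 listed noncoding genes. This gave 70 of the 54675 probe sets, which read 26 of the 19775 genes with a probe set of their own, among them 17 of the listed ones. Another 14 listed genes were found only on probe sets that carry several symbols. The 51 probe sets of that kind that hold any member were counted without names.

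Total RNA was measured on 56 Affymetrix expression arrays, 1 per sample, in 14 groups of 4. The lines HuT-102, MJ and MY-LA were harvested at day 4 and day 8 and HuT-78 at day 8 only, each either untreated or with cobomarsen (MRG-106), an oligonucleotide that inhibits the microRNA miR-155. The series names day 4 for direct and day 8 for downstream targets of miR-155. No dose is given in the labels, every control was an untreated well, and an effect of adding any oligonucleotide cannot be told apart from that of blocking miR-155. Cells grew in 6-well plates with the oligonucleotide added to the medium. After 96 hours every well was split by the dilution that untreated cells needed. Whether the 4 arrays of a group stand for 4 cultures is not stated, and the p-values then measure the spread between arrays, which may be technical. In such bulk RNA, fewer cells of a type and less RNA per cell cannot be told apart.

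snoRNA host genes are transcribed as spliced RNAs whose introns carry snoRNAs, the guides for chemical modification of ribosomal RNA. Many host RNAs begin with a run of pyrimidines, as messages of ribosomal proteins do, and are bound by ribosomes and degraded by nonsense-mediated decay, so that the spliced RNA and the snoRNA can reach different levels. These arrays read the host RNA and not the snoRNA. The other genes are long noncoding RNAs with roles of their own, such as MALAT1, a nuclear RNA of splicing speckles, and NORAD, an abundant cytoplasmic RNA induced by DNA damage.

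The microRNA that cobomarsen blocks is shown first, with its seed (bases 2 to 8) in capitals.
hsa-miR-155-5p: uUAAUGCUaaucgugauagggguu
It lies on chr21:25573983-25574006 (plus strand, GRCh38.p14, RefSeq). The probe set that the array assigns to both its gene and its host transcript had group means of 11499 to 29906 in HuT-102, MJ and MY-LA, and of 29.9 ± 7.73 (SD, n = 4) without and 36.2 ± 20.1 with cobomarsen in HuT-78. Over all values on the arrays the median signal was 74.0.

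The starts of the 9 snoRNA hosts called in MY-LA at day 8 are shown. The first 4 hold a pyrimidine run and fell, SNHG33, SNHG22 and EPB41L4A-AS1 fell without one, and DANCR and SNHG17 rose without one. Each window holds 10 bases before the RefSeq start and 20 from the start on, and capitals mark a C at the start with the C and T bases that follow it.
ZFAS1, chr20:49278632-49278661, plus strand: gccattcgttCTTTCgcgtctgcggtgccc
SNHG32, chr6:31834906-31834935, plus strand: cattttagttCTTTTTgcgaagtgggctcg
SNHG19, chr16:2155339-2155368, minus strand: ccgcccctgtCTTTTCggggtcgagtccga
SNHG4, chr5:139274091-139274120, plus strand: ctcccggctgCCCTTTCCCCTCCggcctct
SNHG33, chr3:183447598-183447627, plus strand: gaggcttttacaccgaacggaggtgatgtg
SNHG33 (second start), chr3:183447641-183447670, plus strand: acgcagccgcacttcaccaagcggccggtc
SNHG22, chr18:49814013-49814042, plus strand: tccgctgggcagaggcttgggccgccgagc
EPB41L4A-AS1, chr5:112160516-112160545, plus strand: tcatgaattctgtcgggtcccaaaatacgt
DANCR, chr4:52712384-52712413, plus strand: tgcgcgccccgcccttgcccagagtcttcc
SNHG17, chr20:38435309-38435338, minus strand: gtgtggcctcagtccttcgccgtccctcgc
The build is GRCh38.p14 and the sequences are from RefSeq. A C at the start followed by at least 4 bases that are C or T was found at the starts of 5 of the 23 member genes with a promoter sequence, ZFAS1, SNHG32, SNHG19, SNHG4 and SNHG18, and at 4.07% of all 35116 promoters. When the run could begin within 5 bases of the start on either side, 10 of the 23 genes and 21.1% of promoters held one, with DANCR and SNHG17 among the 10, and with at least 6 pyrimidines after the C the figures were 2 genes (SNHG4 and SNHG18) and 2.10%. A member gene was counted when any of its starts held a run (30 starts for the 23 genes), while promoters were counted singly. The shares of genes and of promoters are therefore in unlike units. A match is a description of these letters.

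The values are MAS5 signals scaled to a common level on every array, and they were analysed as log2(signal + 16) with limma. In what follows, ± after a signal is the SD over 4 arrays and ± after a log2 change is its standard error. Testing was limited to probe sets with a mean signal, over the 8 arrays of both groups, at or above that median, and a probe set was called at a Benjamini-Hochberg adjusted p under 0.05 over all probe sets tested. Of the 70 member probe sets, 49 (of 22 genes) were tested for treatment in at least 1 line and day, 41 in all 7 comparisons, and 21 in none. The 21 were all but 1 of the 10 MEG3 probe sets, 3 of KCNQ1OT1, 3 of LINC-PINT, 1 of TUG1 and the probe sets of SNHG10, SNHG18, SNHG24 and SNHG27.

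Cobomarsen moved members in both directions in every line, and how many rose or fell depended on the line. In HuT-102 at day 4, 12 of 43 tested member probe sets rose and 3 fell, beside 9.71% and 9.42% of all probe sets tested. At day 8 in HuT-102, 18 of 45 rose and 5 fell, beside 18% and 17.5%. In MJ at day 4, 8 of 45 rose and 2 fell (12.3% and 11% of all), and at day 8, 12 of 44 rose and 2 fell (14.3% and 14.2%). MY-LA went the other way, with 5 of 44 higher and 10 lower at day 4 (11.9% and 11.8% of all) and 7 of 42 higher and 14 lower at day 8 (21.4% and 15.9%). The array numbers in the MY-LA titles run in blocks by treatment, where those of the other lines alternate. Array order and cobomarsen therefore cannot be told apart in MY-LA. In HuT-78 7 of 43 were higher and 6 lower (6.84% and 9.03%). These counts leave out the probe sets with several symbols, which were counted after seeing the data and leaned the other way in MJ. Of 42 of those tested there, 3 were higher and 6 lower at day 4, and 1 was higher and 10 lower at day 8. Some of the smaller counts of members rested on single arrays. The falls came to 3 in HuT-102 at day 8 without untreated array 3 or cobomarsen array 2, to 1 in MJ at day 4 without array 1 or 3 of either group, to 1 in MJ at day 8 without array 1 of either group or cobomarsen array 4, and to 5 in MY-LA at day 4 without untreated array 1.

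The median log2 change of the tested members was 0.11, 0.12, 0.21 and 0.20 in HuT-102 at day 4 and day 8 and MJ at day 4 and day 8, where that of all probe sets tested lay between -0.0045 and 0.02. It was -0.08 and -0.27 in MY-LA at day 4 and day 8 (all probe sets -0.0076 and 0.03) and -0.03 in HuT-78 (all probe sets -0.07). Probe sets of 1 gene are not separate RNAs, and MALAT1 alone gave 7 of the 12 rises in HuT-102 at day 4 and 9 of the 18 at day 8. In MJ it gave 3 of the 8 rises at day 4 and 5 of the 12 at day 8, and NORAD and OIP5-AS1 gave 2 each at either day. Of the 42 member probe sets tested in MY-LA at day 8, 11 were MALAT1 probe sets with negative changes (median -0.30), 1 of them called lower. By gene, 17 of the 22 with a tested probe set had at least 1 call. CYTOR and NORAD were called only higher, EPB41L4A-AS1, SNHG22, SNHG33 and SNHG4 only lower, and 11 genes had calls in both directions in different lines or probe sets. GAS5, KCNQ1OT1, MEG3, PVT1 and SNHG28 had none. These gene counts pool 7 comparisons and every tested probe set of a gene. The same count over all genes was not made, so they have no background.

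**Figure D1:**
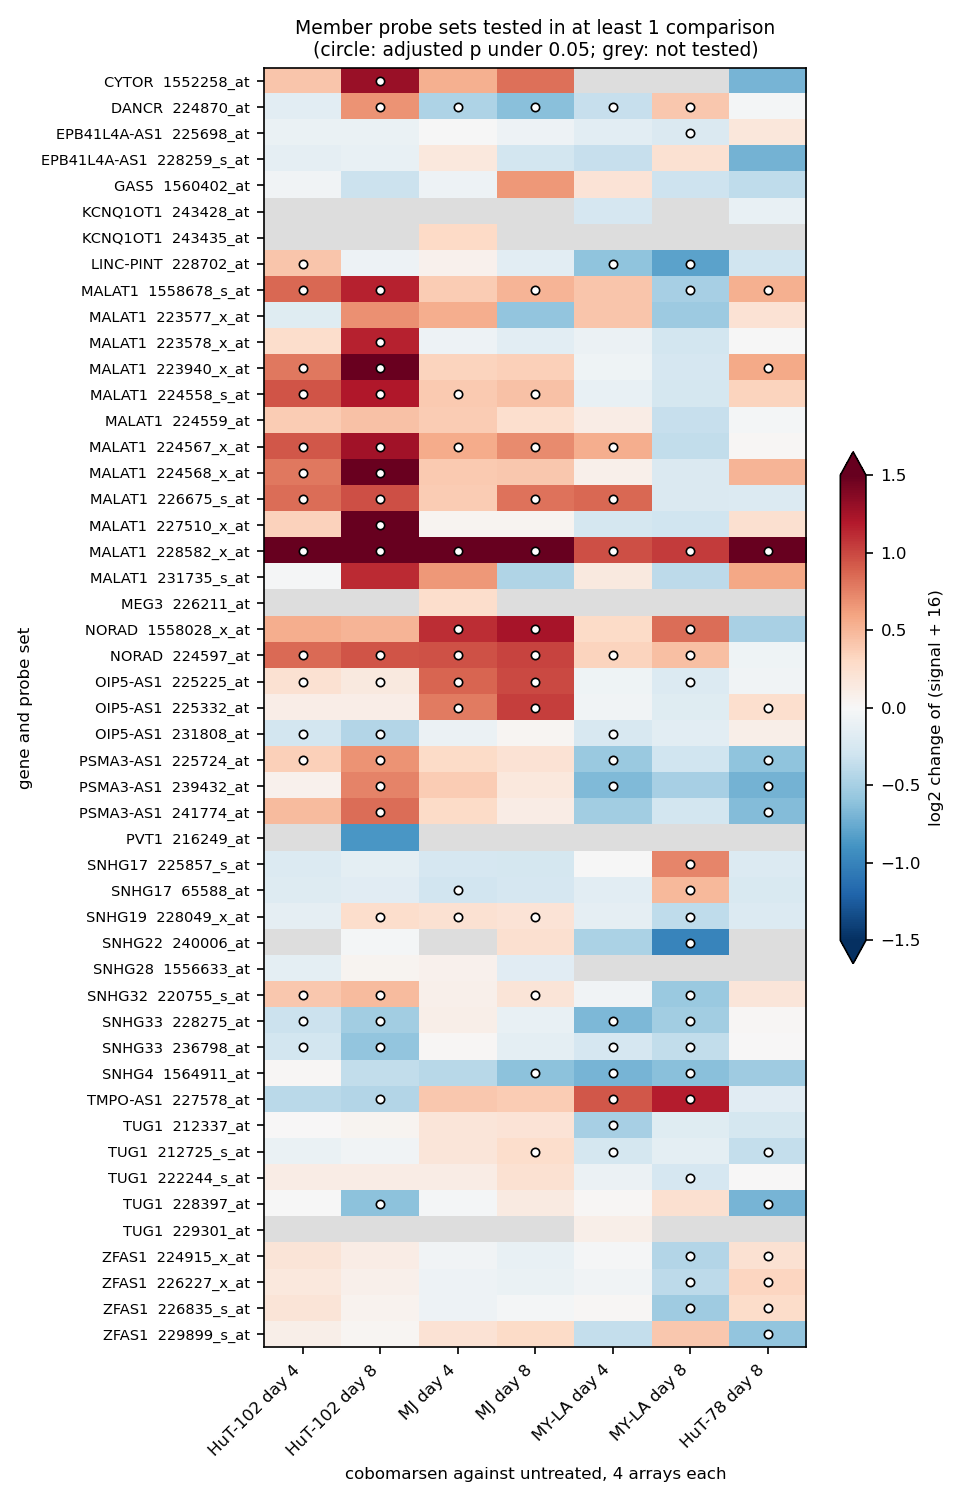
Log2 change of (signal + 16) with cobomarsen against untreated wells (colour, held at 1.5 in size) for the 49 tested member probe sets (rows) in 7 comparisons (columns), with called values circled and untested ones grey. The row of MALAT1 228582_x_at is circled in all 7 columns, and in MY-LA at day 8 SNHG32, SNHG19, SNHG4 and 3 of the 4 ZFAS1 probe sets are blue.

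NORAD rose in each of the 6 comparisons of HuT-102, MJ and MY-LA. NORAD is known for its part in keeping the genome stable. Probe set 224597_at stood at 3035, 2829, 2717 and 3271 in the untreated and 5379, 5712, 5045 and 5272 in the cobomarsen arrays of HuT-102 at day 4. At day 8 the same line gave 2996, 3125, 2768 and 2784 untreated and 5799, 5339, 5440 and 5936 with cobomarsen. Every treated array was above every untreated one at both days, with log2 changes of 0.85 ± 0.06 and 0.94 ± 0.06 (adjusted p = 5.36e-16 and 2.89e-18).

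In MJ the NORAD signals were 3751, 3448, 3698 and 3820 untreated and 7277, 7163, 6889 and 7350 with cobomarsen at day 4. They were 3901, 3783, 3719 and 3807 against 7752, 8247, 7606 and 7089 at day 8. The groups were again apart, and the changes were 0.96 ± 0.06 and 1.01 ± 0.06 (adjusted p = 2.83e-18 and 2.33e-19).

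MY-LA showed a smaller NORAD rise, of 0.34 ± 0.06 at day 4 (5211, 5017, 4762 and 5135 to 6205, 6703, 6541 and 6021, adjusted p = 2.79e-05) and 0.46 ± 0.06 at day 8 (4744, 4057, 3724 and 4017 to 5860, 5166, 5955 and 5693, adjusted p = 2.65e-08). No array of 1 group reached into the other at either day. In HuT-78 NORAD was already high, at 11192, 10913, 11298 and 11434 untreated and 11543, 10502, 10045 and 10719 with cobomarsen, and these groups overlapped (log2 change -0.07 ± 0.06). The day 8 effect on NORAD differed between the 4 lines (moderated F-test, adjusted p = 1.47e-15). All 6 calls held under every alternative setting and without any 1 array.

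A dimmer NORAD probe set, 1558028_x_at, rose in MJ from 178 to 400 at day 4 (log2 1.11 ± 0.22) and from 188 to 459 at day 8 (1.23 ± 0.22), and in MY-LA at day 8 from 235 to 442 (0.84 ± 0.22). In HuT-102 at day 4 it had a log2 change of 0.54 ± 0.22 (adjusted p = 0.0778).

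OIP5-AS1, also known as Cyrano, is a conserved long noncoding RNA that binds microRNAs, and it rose mainly in MJ. Probe set 225225_at went from 3285, 3567, 4090 and 3416 to 6737, 6480, 6556 and 6521 in MJ at day 4, and from 3804, 3861, 3769 and 3829 to 7534, 7336, 7527 and 8022 at day 8. The lowest treated array was far above the highest untreated one at both days. The log2 changes were 0.87 ± 0.06 and 0.99 ± 0.06 (adjusted p = 2.63e-18 and 1.14e-20), and a second probe set, 225332_at, gave 0.78 ± 0.08 and 1.04 ± 0.08.

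Elsewhere OIP5-AS1 moved little. In HuT-102 225225_at rose by 0.23 ± 0.06 at day 4 and 0.15 ± 0.06 at day 8, and in MY-LA at day 8 it fell by 0.21 on the log2 scale. The 3 probe sets of OIP5-AS1 disagreed in HuT-102, where 231808_at fell from 1377 ± 55.1 to 1140 ± 88.3 at day 4 and from 1321 ± 61.5 to 972 ± 103 at day 8. Between the 4 lines the day 8 effect on 225225_at differed (adjusted p = 3.93e-18). The calls of 231808_at in HuT-102 at day 4 and 225225_at in HuT-102 at day 8 were lost without cobomarsen array 3 (adjusted p = 0.0543, and up to 0.151 over the 3 arrays that ended the latter). OIP5, the centromere protein gene whose locus overlaps OIP5-AS1, went down where its antisense partner went up in MJ, by 0.39 at day 4 and 0.84 at day 8 (log2 changes of -0.39 ± 0.10 and -0.84 ± 0.10). It fell too in HuT-102 (-0.83 ± 0.10 and -1.20 ± 0.10) and MY-LA (-0.31 ± 0.10 and -0.25 ± 0.10) and rose in HuT-78 (0.33 ± 0.10).

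**Figure D2:**
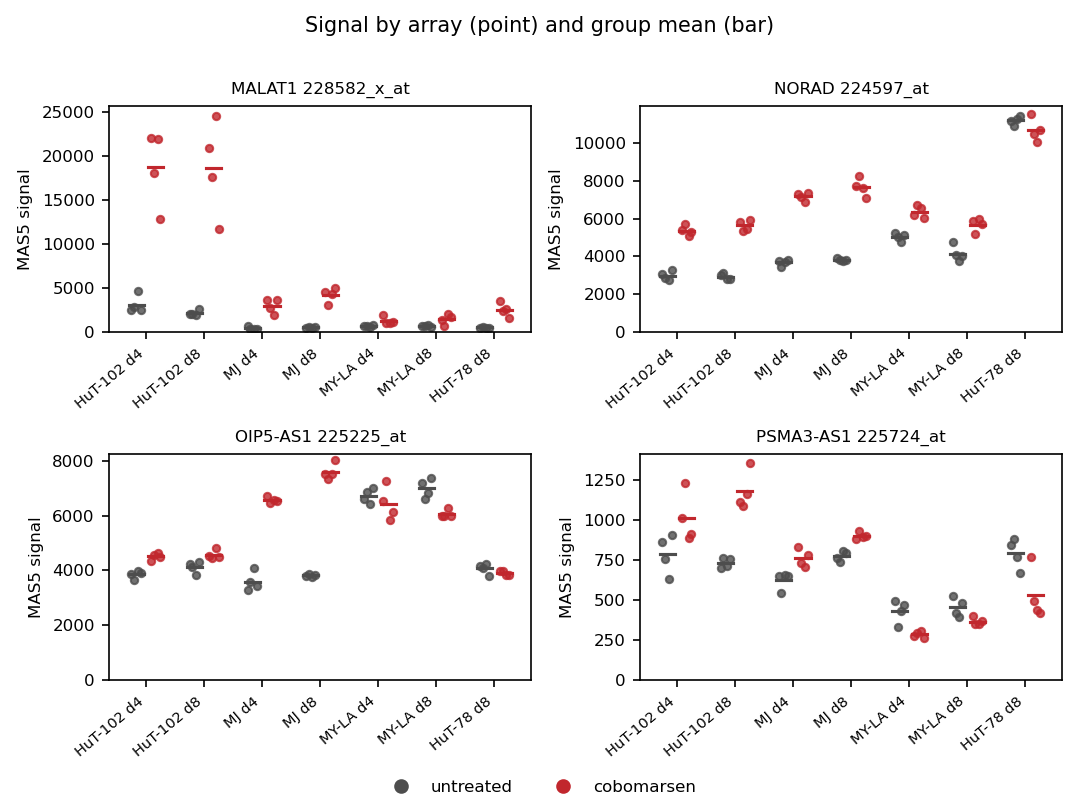
MAS5 signal (y axis, from 0) of MALAT1 228582_x_at, NORAD 224597_at, OIP5-AS1 225225_at and PSMA3-AS1 225724_at on each array (points) with group means (bars), untreated in grey and cobomarsen in red, for each line and day (x axis). NORAD is higher with cobomarsen in HuT-102, MJ and MY-LA but not in HuT-78, and OIP5-AS1 goes from a mean of 3816 to 7605 in MJ at day 8.

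MALAT1 was read by 12 probe sets, and 1 of them behaved unlike the rest. Probe set 228582_x_at rose in all 7 comparisons. In HuT-102 at day 4 it stood at 2401, 2785, 4553 and 2409 untreated and at 22021, 17982, 21943 and 12848 with cobomarsen (log2 change 2.64 ± 0.26, adjusted p = 9.93e-12). At day 8 its signals were 2006, 2002, 1928 and 2548 against 20907, 17532, 24475 and 11633 (3.08 ± 0.26, adjusted p = 1.48e-14). The lowest treated array was several-fold above the highest untreated one at day 8.

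In MJ the same probe set gave 585, 315, 339 and 330 against 3547, 2667, 1830 and 3546 at day 4 (2.83 ± 0.26) and 397, 487, 397 and 560 against 4482, 3007, 4308 and 4947 at day 8 (3.13 ± 0.26). In HuT-78, which has the miR-155 host transcript near background, it gave 413, 539, 448 and 438 against 3447, 2357, 2615 and 1486 (2.33 ± 0.26, adjusted p = 3.01e-08). This was the largest rise of the 21203 probe sets tested in HuT-78. In MY-LA the rise was smaller and the treated arrays spread more widely, with 598, 600, 503 and 715 against 1895, 929, 988 and 1123 at day 4 (0.96 ± 0.26) and 580, 587, 743 and 550 against 1295, 638, 1999 and 1642 at day 8 (1.05 ± 0.26), where the groups overlapped. The 7 calls held under every alternative and without any 1 array.

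The other 11 MALAT1 probe sets rose in HuT-102 and moved less elsewhere. In HuT-102 6 of the 11 were called higher at day 4 and 8 at day 8, with median log2 changes of 0.79 and 1.16. The brightest, 1558678_s_at, went from 7960 to 14505 at day 4 (0.87 ± 0.16) and from 7431 to 16778 at day 8 (1.16 ± 0.16). In MJ 2 and 4 of the 11 were called higher (medians 0.38 and 0.36), in MY-LA 2 at day 4 and none at day 8 (medians 0.11 and -0.30), and in HuT-78 2 (median 0.24). The tested change in MY-LA at day 8 was negative for all 11, from -0.55 to -0.22, and 1558678_s_at was called lower (-0.50 ± 0.16).

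No other MALAT1 probe set reached the change of 228582_x_at in any comparison, the highest being 1.65 in HuT-102 at day 8 (227510_x_at). The calls of 1558678_s_at were lost without cobomarsen array 1 in MJ at day 8 (adjusted p = 0.0556) and without cobomarsen array 2 in MY-LA at day 8 (0.114). The sequences of the probes were not used here. Where in the transcript the 12 probe sets lie, and whether any of them also reads other RNAs, was therefore not tested. MALAT1 helps to organise nuclear speckles, and the neighbouring paraspeckles are built by another set of RNA-binding proteins. Of 13 tested paraspeckle proteins, 6 fell and none rose in HuT-102 at day 8 (median -0.16, beside 17.5% of all lower and 18% higher). In MY-LA at day 8 7 rose and 2 fell (median 0.22, beside 21.4% and 15.9%). Of these, SFPQ rose by 0.85 ± 0.08 in MY-LA and MATR3 fell by 1.34 in HuT-102 and 1.01 in MY-LA on the log2 scale. At day 4 in MY-LA the list went mostly down, with 1 rise and 4 falls (11.9% and 11.8% of all). HuT-78 had 1 rise and 3 falls (6.84% and 9.03%), and HuT-102 at day 4 had 2 falls and no rise (9.42% of all lower). MJ had 1 rise at day 4 (12.3%) and 1 rise and 1 fall at day 8 (14.3% and 14.2%).

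**Figure D3:**
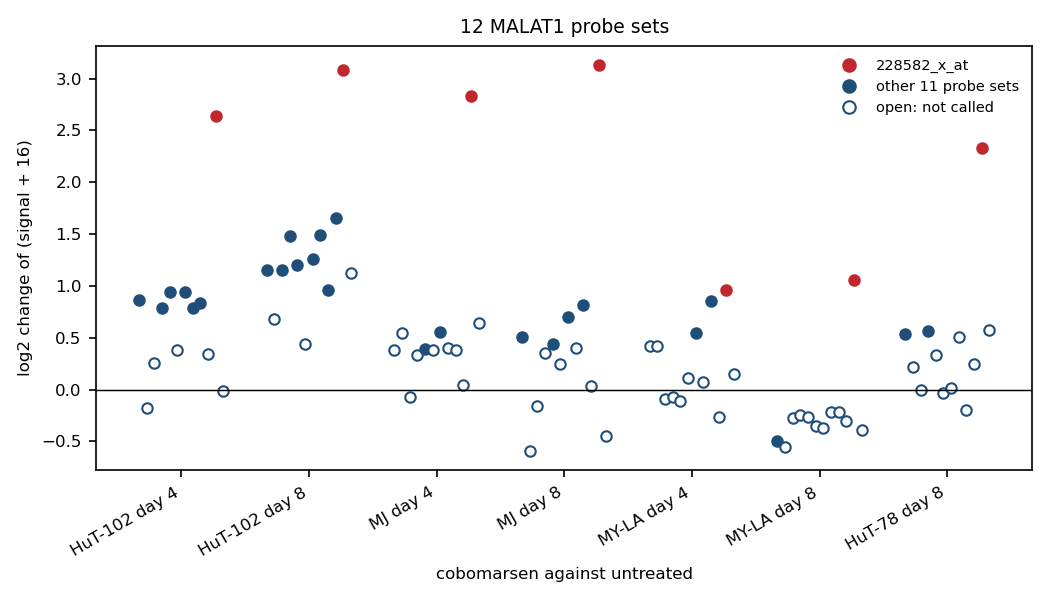
Log2 change of (signal + 16) with cobomarsen (y axis) for each of the 12 MALAT1 probe sets in the 7 comparisons (x axis), filled where called. Probe set 228582_x_at (red) lies between 0.96 and 3.13 and above the other 11 (blue) in every comparison.

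In MY-LA at day 8, 7 snoRNA hosts fell, 4 of them with a pyrimidine run at the start (ZFAS1, SNHG32, SNHG19 and SNHG4) and 3 without (SNHG33, SNHG22 and EPB41L4A-AS1). ZFAS1 hosts several snoRNAs and was read by 3 bright probe sets and a dim one. Its brightest, 224915_x_at, stood at 21548, 26223, 28489 and 25276 untreated and at 18061, 19227, 18851 and 18233 with cobomarsen, and the groups did not overlap. The log2 change was -0.44 ± 0.08 (adjusted p = 1.81e-05), and the other 2 bright probe sets gave -0.39 ± 0.09 (226227_x_at) and -0.53 ± 0.08 (226835_s_at). The dim ZFAS1 probe set, 229899_s_at, pointed the other way, at 143 untreated and 190 with cobomarsen (0.40 ± 0.21, adjusted p = 0.129).

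SNHG32, a host in the class III region of the major histocompatibility complex, went from 6245, 6585, 6771 and 6606 to 4529, 4136, 4856 and 4363 in MY-LA at day 8 (-0.55 ± 0.07, adjusted p = 1.42e-08). SNHG19 went from 9321, 9341, 9277 and 9361 to 7225, 6641, 7727 and 7189 (-0.38 ± 0.07, adjusted p = 5.16e-05). Both were separated without overlap. SNHG4, at 309, 236, 251 and 289 against 236, 147, 131 and 178, fell with groups that overlapped at 1 array (-0.63 ± 0.21), and it was also lower in MY-LA at day 4 (-0.70 ± 0.21) and MJ at day 8 (-0.61 ± 0.21). Its 2 calls in MY-LA were lost without cobomarsen array 2 at day 4 (adjusted p = 0.0517) and array 3 at day 8 (0.0647), and that in MJ without any of 3 arrays, untreated array 1 and cobomarsen arrays 1 and 4 (up to 0.116).

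In the other lines SNHG32 and SNHG19 had no call lower. SNHG32 rose in HuT-102, from 3691, 3964, 3783 and 3704 to 5428, 4818, 4984 and 4840 at day 4 (0.40 ± 0.07) and from 4091, 3915, 4820 and 4557 to 6314, 6578, 6052 and 5239 at day 8 (0.47 ± 0.07), with no overlap at either day. SNHG19 rose in HuT-102 at day 8 (1933 ± 95.6 to 2335 ± 292, 0.26 ± 0.07) and in MJ (0.23 ± 0.07 at day 4 and 0.20 ± 0.07 at day 8), and SNHG32 in MJ at day 8 (0.19 ± 0.07). These small rises were not stable, since that of SNHG19 in HuT-102 was lost without cobomarsen array 3 (adjusted p = 0.0558) and those in MJ without any of 3 to 6 arrays (up to 0.167). The 3 bright ZFAS1 probe sets rose in HuT-78 by 0.23 to 0.32, each with overlapping groups, and none was called with the arrays of HuT-78 alone. There 229899_s_at was called lower, from 543 to 363 (-0.60 ± 0.21, adjusted p = 0.0434, lost without any of 6 arrays).

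The day 8 effect differed between the 4 lines for ZFAS1 224915_x_at (adjusted p = 1.21e-05), SNHG32 (2.77e-11) and SNHG19 (5.52e-07), and did not pass for SNHG4 (0.844). In MY-LA the effect also differed between the days for ZFAS1 (log2 difference -0.43 ± 0.12) and SNHG32 (-0.50 ± 0.10). At day 4 ZFAS1 stood at 23163 ± 1372 untreated and 22920 ± 1050 with cobomarsen there.

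Messages of the translation machinery are known to begin with such a run, and 2 lists of them were followed. Of 25 ribosomal protein genes with a probe set of their own (of 40), 3 fell and none rose in MY-LA at day 8 (median -0.12, beside 15.9% of all probe sets lower and 21.4% higher). The list had 3 rises in HuT-102 at day 8 (median 0.18, 18% of all) and 8 in HuT-78 (median 0.23, 6.84% of all), and none was called in the other 4 comparisons. RPL36 fell by 0.32 on the log2 scale in MY-LA. Of 13 translation factors, 4 fell and 1 rose in MY-LA at day 8 (median -0.08, 15.9% and 21.4% of all). In HuT-78 4 rose and none fell (median 0.16, 6.84% of all higher). At day 4, 2 rose in MY-LA (11.9%), 1 in HuT-102 (9.71%) and 1 in MJ (12.3%), and none fell. In MJ at day 8 1 rose and 1 fell (14.3% and 14.2%). At day 8 in HuT-102 8 of the 13 rose and none fell (median 0.24, beside 18% of all), EIF4B by 0.54 ± 0.07 and EIF3L by 0.46 ± 0.08.

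DANCR and SNHG17, hosts without a run exactly at the start, rose in MY-LA at day 8. DANCR, a host also known as an inhibitor of cell differentiation, went from 9120, 7811, 9884 and 7598 to 11532, 11929, 10690 and 11244 (0.41 ± 0.12, adjusted p = 0.00444). At day 4 it had been lower with cobomarsen (10118 ± 809 to 8057 ± 1349, -0.34 ± 0.12, lost without any of 5 arrays, adjusted p up to 0.170). SNHG17 225857_s_at went from 1109, 917, 1066 and 680 to 1569, 1569, 1439 and 1615 (0.73 ± 0.14), and 65588_at gave 0.48 ± 0.10. Neither SNHG17 group overlapped its control, and the effect differed between the days in MY-LA for DANCR (0.75 ± 0.17) and for both SNHG17 probe sets (0.74 ± 0.19 and 0.64 ± 0.14).

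DANCR changed direction between lines. In HuT-102 at day 8 it rose from 2298, 1840, 1642 and 1864 to 3147, 3161, 3255 and 2636 (0.68 ± 0.12), after means of 2804 untreated and 2519 with cobomarsen at day 4. The untreated wells had themselves fallen between the days there (-0.56 ± 0.12), and the effect at day 8 differed from that at day 4 by 0.83 ± 0.17. In MJ DANCR fell, from 3057, 3337, 2251 and 2116 to 1883, 2113, 1938 and 1704 at day 4 (-0.47 ± 0.12) and from 3700, 3916, 3310 and 2901 to 2210, 2260, 1973 and 2486 at day 8 (-0.62 ± 0.12). Treated and untreated arrays were apart in HuT-102 and MJ at day 8, and nearly met in MJ at day 4 (2113 against 2116). HuT-78 showed means of 4028 and 3989.

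SNHG33 fell in HuT-102 and MY-LA at both days, on both of its probe sets. Probe set 228275_at went from 1164, 1407, 1282 and 1259 to 1080, 1067, 965 and 956 in HuT-102 at day 4 and from 1315, 1257, 1325 and 1370 to 909, 741, 981 and 1059 at day 8. In MY-LA it went from 1291, 1178, 1178 and 1228 to 649, 709, 992 and 709 at day 4 and from 1453, 1508, 1644 and 1350 to 988, 1009, 1082 and 1055 at day 8. No group overlapped its control in these 4 comparisons, and the changes were -0.32 ± 0.09, -0.52 ± 0.09, -0.68 ± 0.09 and -0.52 ± 0.09.

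The second SNHG33 probe set, 236798_at, gave -0.27 ± 0.08, -0.59 ± 0.08, -0.25 ± 0.08 and -0.37 ± 0.08 in the same order, and its call in MY-LA at day 4 was lost without untreated array 1 (adjusted p = 0.0546). In MJ and HuT-78 no SNHG33 change was called. The day 8 effect on 236798_at differed between the lines (adjusted p = 3.78e-05).

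Other hosts gave isolated calls or none. SNHG22 fell in MY-LA at day 8 from 261, 323, 202 and 218 to 162, 110, 118 and 87 (-0.99 ± 0.25), in the only line where its untreated mean at day 8 stood clearly above the median of all values. EPB41L4A-AS1, a host antisense to EPB41L4A, fell slightly there (10050 ± 1166 to 8571 ± 187, -0.22 ± 0.07, lost without untreated array 2 or 3, adjusted p up to 0.0935). GAS5, a host known for its build-up when growth stops, was read by 1 probe set of its own at group means of 103 to 290 and was called nowhere, while its other probe sets on the array carry several symbols.

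**Figure D4:**
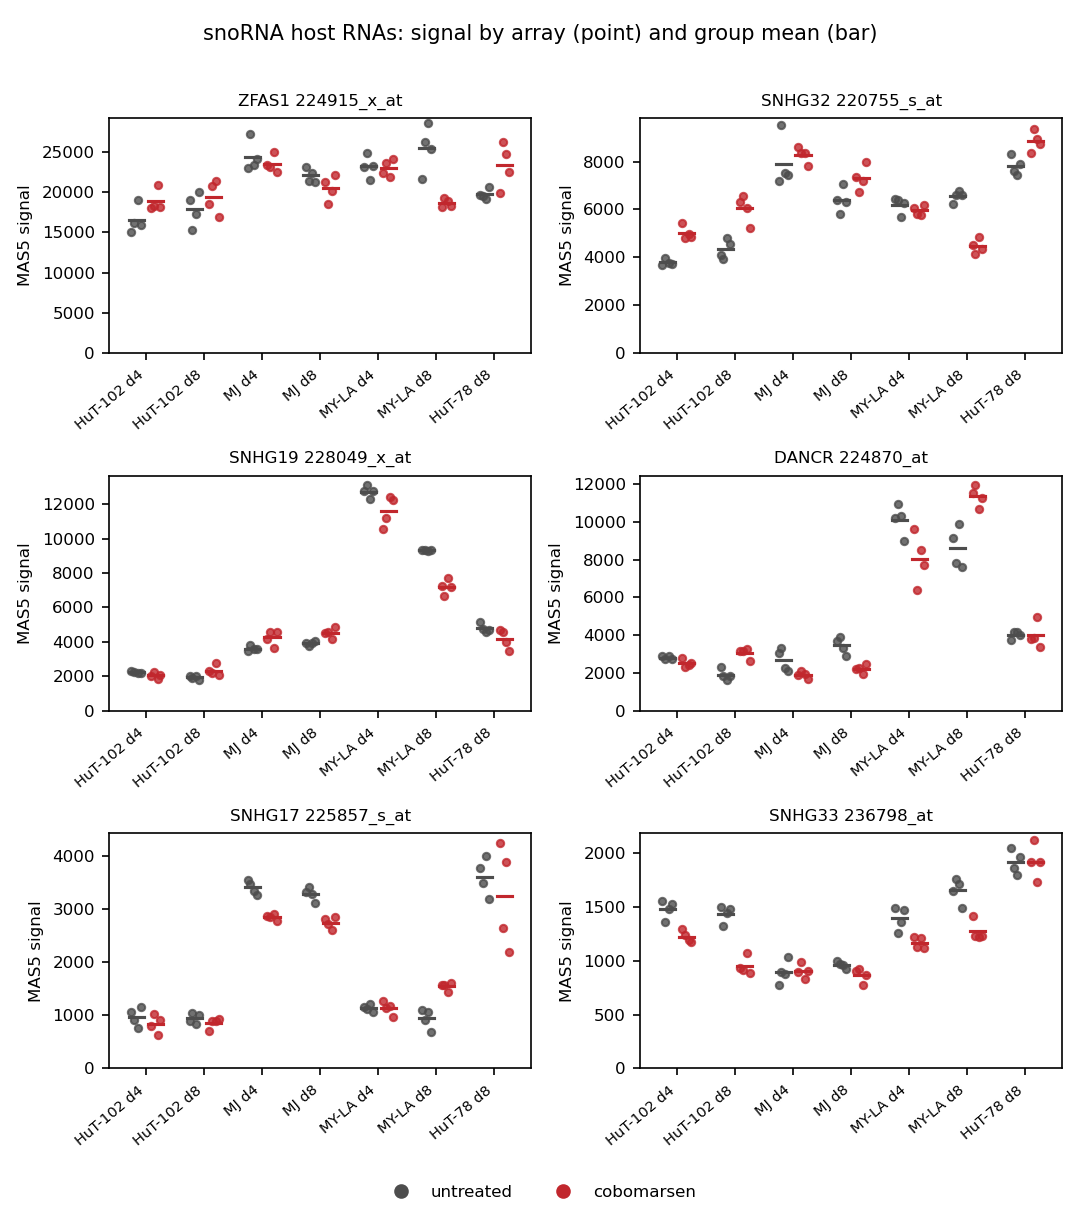
MAS5 signal (y axis, from 0) of 6 snoRNA host probe sets on each array (points) with group means (bars), untreated in grey and cobomarsen in red, by line and day (x axis). In MY-LA at day 8 ZFAS1, SNHG32, SNHG19 and SNHG33 are lower with cobomarsen and DANCR and SNHG17 higher, as from 8603 to 11349 for DANCR.

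Antisense and intergenic RNAs moved by line as well. TMPO-AS1, antisense to the nuclear lamina gene TMPO, rose in MY-LA from 482, 435, 607 and 520 to 994, 1069, 933 and 949 at day 4 (0.94 ± 0.18) and from 485, 425, 347 and 363 to 914, 926, 929 and 933 at day 8 (1.17 ± 0.18). The groups were well apart at both days. In HuT-102 at day 8 it was lower, at 142 ± 22.0 against 198 ± 28.2 (-0.44 ± 0.18), a call lost without any of 6 arrays (adjusted p up to 0.160). TMPO itself rose by 0.23 ± 0.07 in MY-LA at day 8 and fell by 0.31 on the log2 scale in HuT-102 at day 8.

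PSMA3-AS1, antisense to a proteasome subunit gene, rose in HuT-102 at day 8 on all 3 probe sets. Probe set 225724_at went from 700, 763, 713 and 755 to 1115, 1087, 1159 and 1358 (0.67 ± 0.13), with 0.75 ± 0.21 and 0.83 ± 0.23 on the others. In MY-LA at day 4 it fell from 492, 327, 427 and 464 to 273, 290, 307 and 262 (-0.56 ± 0.13). These groups did not overlap. In HuT-78 the 3 probe sets were lower by 0.60 to 0.71 on average, as with 842, 880, 770 and 667 against 765, 489, 436 and 418 for 225724_at, where cobomarsen array 1 lay within the untreated range. The sense gene PSMA3 fell by 0.20 in HuT-102 at day 8 and by 0.20 and 0.30 in MJ on the log2 scale.

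LINC-PINT, a p53-induced RNA, fell in MY-LA from 2959, 2934, 2575 and 2291 to 1516, 1927, 1773 and 1847 at day 4 (-0.60 ± 0.12) and from 1270, 1522, 1119 and 1345 to 946, 651, 677 and 715 at day 8 (-0.81 ± 0.12). It was also lower at day 8 than at day 4 in untreated MY-LA wells (-1.03 ± 0.12). In HuT-102 at day 4 it rose from 812 ± 54.7 to 1091 ± 80.0 (0.42 ± 0.12). CYTOR, a cytoskeleton regulator RNA, was called in HuT-102 at day 8 (129 ± 67.1 to 321 ± 122, 1.30 ± 0.41), and that call was lost without untreated array 3 (adjusted p = 0.113).

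TUG1, an RNA first described in the retina, moved little. Its 3 bright probe sets had log2 changes of at most 0.49 in size, and 212337_at fell in MY-LA at day 4 from 1515 to 1080 (-0.49 ± 0.09). Untreated MY-LA wells also lost TUG1 between the days on all 3, by -0.43 ± 0.09, -0.45 ± 0.09 and -0.32 ± 0.10. The other TUG1 calls, of 0.25 to 0.69 in size, were each lost without at least 1 array.

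HuT-78 calls rested on few arrays. Of its 13 called member probe sets, 3 had groups that did not overlap, a share that was not counted over all probe sets. With the HuT-78 arrays alone only MALAT1 228582_x_at was called among the members. The counts were 1 higher and 5 lower without cobomarsen array 2, 4 higher and 2 lower without cobomarsen array 4, and 10 higher and 12 lower without cobomarsen array 1. They were 4 higher without any 1 of untreated arrays 1 to 3 or cobomarsen array 3, and 3 lower without untreated array 3 or cobomarsen array 3. The upper quartile of signal was 431 on cobomarsen array 1, 380 to 385 on the other 3 cobomarsen arrays and 422 to 443 untreated. With quantile normalization the HuT-78 calls of ZFAS1 224915_x_at, 226835_s_at and 229899_s_at, TUG1 228397_at, and PSMA3-AS1 239432_at and 241774_at were lost. The median log2 change of all probe sets tested in HuT-78 went from -0.07 to 0.01 under that setting. How much of the counts goes with the upper quartile was not tested.

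Time alone moved fewer members in untreated wells. Between day 4 and day 8, 2 of 45 tested member probe sets were called in HuT-102 (7.01% of all), 2 of 43 in MJ (1.22%) and 10 of 43 in MY-LA (9.97%). MALAT1 224558_s_at was higher at day 8 in all of HuT-102, MJ and MY-LA, by 0.55 ± 0.13, 0.48 ± 0.13 and 0.50 ± 0.13. It is 1 of 12 MALAT1 probe sets, and only 1 member probe set was called higher over time in HuT-102 and 1 in MJ. In MY-LA LINC-PINT fell the most among the members called, SNHG19 fell by about as much as TUG1 (-0.45 ± 0.07), and NORAD fell by 0.29 on the log2 scale. The MJ count was 4 without day 4 array 1, 1 without day 4 array 2 or 3 or day 8 array 1 or 3, and 0 without day 8 array 2 or 4, and the MY-LA count was 6 without day 8 array 3. The effect of cobomarsen differed between the days for 2 of 43 member probe sets in HuT-102 (5.22% of all), 0 of 44 in MJ (0.686%) and 9 of 43 in MY-LA (14.4%). The 2 in HuT-102 were DANCR and SNHG19 (0.40 ± 0.11).

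Of the 43 member probe sets tested over the lines at day 8, 37 had a treatment effect that differed between the lines (moderated F-test), beside 56% of all probe sets tested. Untreated levels differed for 42 of 43, beside 89%. HuT-102 and MJ carry 1 run of array numbers and MY-LA and HuT-78 another, so across these pairs line and run cannot be told apart. By pair of lines, 30 of 45 differed between HuT-102 and MJ (53.5% of all), 35 of 44 between HuT-102 and MY-LA (65.6%) and 33 of 43 between HuT-102 and HuT-78 (70%). MJ differed from MY-LA for 25 of 42 (62.2%) and from HuT-78 for 21 of 42 (65.6%), and MY-LA differed from HuT-78 for 33 of 44 (72.3%).

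Each line had its own high RNAs among untreated wells at day 8. HuT-78 held the most NORAD (11209 ± 221), ahead of MY-LA (4135 ± 432) and MJ (3802 ± 75.6), which were not called apart (adjusted p = 0.100), and of HuT-102 (2918 ± 173). MY-LA held the most of 3 hosts. SNHG19 stood at 9325 ± 35.9 in MY-LA, 4789 ± 239 in HuT-78, 3931 ± 141 in MJ and 1933 ± 95.6 in HuT-102, every step called. DANCR stood at 8603 ± 1087 in MY-LA, then 4028 ± 218 in HuT-78 and 3457 ± 447 in MJ (adjusted p = 0.0823 between these), and 1911 ± 276 in HuT-102. EPB41L4A-AS1 225698_at ran in the same order, at 10050 ± 1166, 4543 ± 269, 4310 ± 205 and 2657 ± 22.3, and HuT-78 and MJ were again not called apart (adjusted p = 0.386).

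SNHG17 split the lines into pairs, with 225857_s_at at 3611 ± 347 in HuT-78 and 3287 ± 122 in MJ against 944 ± 99.6 in HuT-102 and 943 ± 194 in MY-LA, and no call within a pair (adjusted p = 0.409 and 0.909). MALAT1 was highest in HuT-102, where 1558678_s_at stood at 7431 ± 535 against 1949 ± 152, 1934 ± 127 and 1574 ± 221 in MY-LA, HuT-78 and MJ, which were not called apart. OIP5-AS1 225225_at was higher in MY-LA (6999 ± 354) than in the other 3 lines (3816 to 4123, not called apart). SNHG33 was lowest in MJ, at 964 ± 30.5 for 236798_at, and highest in HuT-78 (1914 ± 112). ZFAS1 ranged from 17868 ± 2091 in HuT-102 to 25384 ± 2891 in MY-LA for 224915_x_at.

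**Figure D5:**
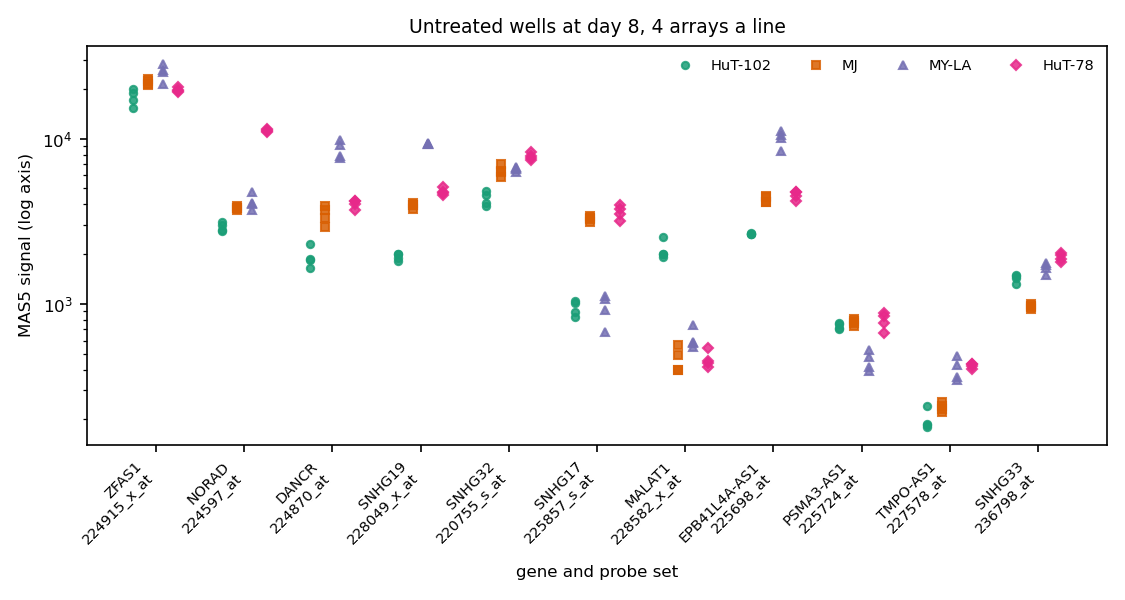
MAS5 signal (y axis, log scale) of 11 member probe sets (x axis) in untreated wells at day 8, with 1 point per array and 1 marker shape per line. NORAD is highest in HuT-78 (mean 11209), SNHG19, DANCR and EPB41L4A-AS1 in MY-LA and MALAT1 in HuT-102.

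Proteins that build and assemble snoRNA particles were followed beside the hosts. Of 17 tested genes, 4 and 7 fell in HuT-102 at day 4 and day 8 and 7 and 4 in MJ, with no rise but 1 in MJ at day 8 (medians -0.17, -0.18, -0.19 and -0.14), beside 9.42%, 17.5%, 11% and 14.2% of all probe sets lower. In MY-LA 6 rose at either day, with 2 falls at day 8 (medians -0.0059 and 0.02, with 11.9% and 21.4% of all higher and 15.9% lower at day 8), and in HuT-78 7 rose and none fell (median 0.18, 6.84% of all higher). GAR1, a core protein of H/ACA particles, fell in HuT-102 (-0.28 ± 0.10 and -0.39 ± 0.10) and rose in MY-LA (0.40 ± 0.10 and 0.89 ± 0.10). NOLC1, a nucleolar chaperone of these particles, rose in MY-LA (0.38 ± 0.08 and 0.76 ± 0.08), as did SHQ1, an assembly factor of theirs, at day 8 (0.90 ± 0.09). RUVBL1, a helicase of the assembly complex, fell in MJ (-0.51 ± 0.06 and -0.47 ± 0.06). Of 10 to 11 tested factors of nonsense-mediated decay, 2 rose and 2 fell in MY-LA at day 4, beside 11.9% and 11.8% of all. At day 8 there 3 rose and 1 fell (21.4% and 15.9%), and in HuT-78 2 rose and 1 fell (6.84% and 9.03%). In HuT-102 1 rose at day 4 (9.71%), and 1 rose and 1 fell at day 8 (18% and 17.5%). None was called in MJ (11% to 14.3% of all in each direction).

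Growth-related messages moved beside the noncoding RNAs. Of 10 proliferation genes, 6 fell at day 4 and 10 at day 8 in HuT-102 (medians -0.35 and -0.81), 8 fell in MJ at day 8 (-0.37), beside 9.42%, 17.5% and 14.2% of all probe sets lower, and 2 and 3 rose with no fall in MY-LA at day 8 (0.09) and HuT-78 (0.14), beside 21.4% and 6.84% higher. The cell cycle kinase CDK1 fell by 1.11 in HuT-102 and 0.63 in MJ at day 8 on the log2 scale. Their part in the changes of the noncoding RNAs was not tested.

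Protein-coding genes beside other noncoding members showed their own pattern. The gene CDKN1C, which encodes a cyclin-dependent kinase inhibitor and lies near KCNQ1OT1, rose in HuT-102 (0.89 ± 0.23 and 1.95 ± 0.23) and MJ (1.22 ± 0.23 and 1.27 ± 0.23), while KCNQ1OT1 was too dim to be tested there outside MJ at day 4. EPB41L4A rose in MY-LA at day 8 (0.56 ± 0.19), where its antisense host fell, and in MJ (0.95 ± 0.19 and 1.51 ± 0.19), where EPB41L4A-AS1 225698_at had changes of -0.01 and -0.07. SLC3A2, an amino acid transporter subunit next to the host SNHG1, rose in HuT-102 (0.43 ± 0.11 and 0.86 ± 0.11) and MY-LA at day 8 (0.99 ± 0.11) and fell in MJ (-0.45 ± 0.11 and -0.41 ± 0.11). ZNFX1, whose start lies beside that of ZFAS1, fell in MJ (-0.54 ± 0.15 and -0.61 ± 0.15), with no ZFAS1 call there. MYC, a neighbour of PVT1, fell in HuT-102 at day 8 (-0.70 ± 0.10) and MJ at day 4 (-0.37 ± 0.10) and rose in MY-LA at day 8 (0.30 ± 0.10).

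Of 8 T cell markers, 7 had a probe set of their own. All 7 stood at or above the median of all values in HuT-102 and MJ, 5 in MY-LA, where the kinase LCK was lowest, and 6 in HuT-78, where CD2 was at 44.4. In the order HuT-102, MJ, MY-LA and HuT-78, 1, 1, 1 and 3 of 3 B cell markers reached it. For myeloid markers it was 1, 1, 1 and 0 of 3, and for fibroblast markers 2, 3, 1 and 0 of 4. Epithelial markers gave 1, 1, 1 and 2 of 4, with EPCAM at 8910 in HuT-78. Correlations of log2 values between arrays of 1 group were 0.962 to 0.982. With cobomarsen the upper quartile of signal was higher in every array in HuT-102 at day 8 (439 to 466 against 419 to 429) and in MJ at day 8 (446 to 454 against 425 to 437). In MJ at day 4 the ranges met (430 to 444 against 400 to 430). Its part in the changes was not tested.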

How the data were processed

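Total RNA of 56 samples was hybridized to Affymetrix arrays, 1 array each. The deposited values are signal intensity on a linear scale, made with MAS5 per the submitters' processing notes (version not given in the sources used here). The mean after trimming 2% at each end was 500.1 on every array. The upper quartile ranged from 380 to 466, and precision is limited by the number of arrays.

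Values were taken as log2(signal + 16). Of 54675 probe sets, 62 were controls, and 41091 with 1 symbol were fitted as 14 group means with limma 3.58.1 in R 4.3.3 (42 residual degrees of freedom, eBayes with a trend on mean level, median prior degrees of freedom 8.54). Probe sets whose mean over the arrays compared was under 74.0, the median of all values, were not tested. Tests were two-sided, adjusted by Benjamini-Hochberg over all probe sets tested. Every member probe set may be named, up to 4 called genes of each list in a comparison, and all neighbour genes. The members, lists and rule were chosen with earlier results of these data known. List genes were read by their highest-mean probe set with 1 symbol. Promoter and microRNA sequences are from RefSeq (GRCh38.p14), with 23 of 26 member genes matched. Alternatives were log2(signal + 1) and log2(signal + 64), no filter and one at the 75th percentile (423.5), quantile normalization, all probe sets other than controls, 1 probe set per gene, no trend, only the arrays of the line, and each array left out. Steps were tested on simulated data. Python 3.11.15 with Matplotlib 3.10.9 drew the figures.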

Additional observations from a re-analysis of the deposited data

Results flagged for a closer look

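Single arrays stood far from the other 3 of their group in 14 of 308 groups, checked on the highest-mean probe set of 22 member genes (gap over range above Dixon's 95% value for 4 samples), where chance gives about 1 in 20. In MJ at day 4 untreated these were high arrays for MEG3 (0.833), SNHG32 (0.858) and SNHG4 (0.880) and a low array for PSMA3-AS1 (0.959). In MY-LA they were high arrays for CYTOR (0.842) and KCNQ1OT1 (0.885) in untreated wells at day 4, a low array for GAS5 (0.916) and a high one for SNHG22 (0.870) with cobomarsen at day 4, and high arrays for OIP5-AS1 (0.911) and SNHG33 (0.950) with cobomarsen at day 8. HuT-78 had high arrays for MEG3 untreated (0.952) and SNHG28 with cobomarsen (0.947), and HuT-102 for TMPO-AS1 untreated at day 8 (0.882) and ZFAS1 with cobomarsen at day 4 (0.935).

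The day 8 effect differed between the 4 lines (moderated F-test, adjusted p) for OIP5-AS1 (3.93e-18), NORAD (1.47e-15), SNHG32 (2.77e-11), DANCR (1.51e-08), PSMA3-AS1 (1.19e-07), MALAT1 1558678_s_at (4.71e-07), SNHG19 (5.52e-07), TMPO-AS1 (1.23e-06), ZFAS1 (1.21e-05), SNHG17 (3.27e-05), SNHG33 (3.78e-05), LINC-PINT (0.000718), SNHG22 (0.0109), CYTOR (0.0128), EPB41L4A-AS1 (0.0132), TUG1 (0.0157) and GAS5 (0.0377). Between the days the effect differed in HuT-102 for DANCR (log2 difference 0.83) and SNHG19 (0.40), and in MY-LA for DANCR (0.75), SNHG17 (0.74), ZFAS1 (-0.43), SNHG32 (-0.50) and MALAT1 1558678_s_at (-0.92).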

How the results depend on the processing

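No paired analysis was possible because the labels give the groups no shared replicate numbers. Of the 111 called treatment values of member probe sets, 71 stayed called in the same direction under every setting and with each array left out, and 0 reversed. Calls were lost in 39 when 1 array was left out, 16 with only the arrays of the line, 11 with no filter, 10 with no trend, 8 with quantile normalization, 2 with log2(signal + 1) and 1 with log2(signal + 64). None was lost with all probe sets, and none of those still tested with the 75th percentile filter or 1 probe set per gene. With 1 probe set per gene the counts fall by construction, to 6 higher and 1 lower in HuT-102 at day 4, 8 and 2 at day 8, 3 and 1 in MJ at day 4, 5 higher in MJ at day 8, 3 and 5 in MY-LA at day 4, 4 higher in MY-LA at day 8, and 2 and 2 in HuT-78. The lower counts of MJ and MY-LA at day 8 are not in that list, which does not mean there were none. All 53 calls of highest-mean probe sets were kept in this setting. At day 8 these held DANCR and SNHG4 lower in MJ. In MY-LA they held EPB41L4A-AS1, LINC-PINT, MALAT1, OIP5-AS1, SNHG4, SNHG19, SNHG22, SNHG32, SNHG33, TUG1 and ZFAS1 lower at day 8. The same setting gave 5 for the day difference and 5 for time in MY-LA, 1 for time in HuT-102 and 1 in MJ, and 17 for each F-test. With only the line's arrays MJ had 14 higher at day 4 and 4 lower at day 8, 7 for time, and HuT-78 1 higher and 0 lower. Quantile normalization gave 1 lower in MJ at day 4 and 4 for the day difference in HuT-102, the 75th percentile filter 3 lower in HuT-102 at day 8, and for time in MJ no filter gave 1 and no trend 0. For these the cause was not tested. Leaving out 1 array gave 1 to 10 higher and 2 to 12 lower in HuT-78, 3 to 5 lower in HuT-102 at day 8, 1 to 2 lower in MJ at day 4 and at day 8, 5 to 9 lower in MY-LA at day 4, and for time 0 to 4 in MJ and 6 to 9 in MY-LA. The MAS5 signal over background limits KCNQ1OT1, MEG3 and other dim members.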

Other observations

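The 51 probe sets that hold a member among several symbols were counted after seeing the data, without naming genes. Of 41 to 43 tested, the numbers called higher and lower were 5 and 7 in HuT-102 at day 4, 11 and 6 at day 8, 3 and 6 in MJ at day 4, 1 and 10 at day 8, 1 and 7 in MY-LA at day 4, 8 and 9 at day 8, and 4 and 9 in HuT-78. The shares of all probe sets with 1 symbol called higher and lower were, in the same order, 9.71% and 9.42%, 18% and 17.5%, 12.3% and 11%, 14.3% and 14.2%, 11.9% and 11.8%, 21.4% and 15.9%, and 6.84% and 9.03%. In MJ at day 8 their median log2 change was -0.15, where that of the members with 1 symbol was 0.20.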
